A study of Homo sapiens with 16 samples.

Results

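The genes described here are the 4 CDC-like kinases CLK1, CLK2, CLK3 and CLK4 and 6 serine/arginine-rich (SR) splicing factors, SRSF1, SRSF2, SRSF3, SRSF5, SRSF6 and SRSF7. They were taken by gene symbol from a count table of 23669 genes, and all 10 were found. All 10 also passed the filter on low counts that left 15520 genes to test. The cells were HCT116, an established human colorectal carcinoma line, in 4 versions grown in ordinary air (21% oxygen, normoxia) or for 24 h in 1% oxygen (hypoxia). The control line, shNT, carried a non-targeting short hairpin RNA (shRNA). In the shCDK8 line an shRNA targets the Mediator kinase CDK8. In the shTIP60 line it targets TIP60, an acetyltransferase that is the product of KAT5. The HIF1A-null line (HIF1A-/-) had a genetic deletion of HIF1A, the gene of the HIF subunit that low oxygen stabilises, and its labels name no shRNA, so it differs from shNT in this respect too. Each alteration was represented by 1 line. Every line had 2 poly(A) RNA libraries at each oxygen level (8 groups, 16 libraries), stated to be independent biological replicates and called A and B here by the lower and higher library number in the table.

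CLK kinases are nuclear enzymes that phosphorylate SR proteins on serines of their arginine/serine-rich domain, and they carry a sequence signature in the kinase domain that gave the family its other name, LAMMER kinases. Phosphorylated SR proteins leave nuclear speckles, bind exons through RNA recognition motifs and help to recruit the splicing machinery to nearby splice sites. Many SR genes, and also CLK1 and CLK4, adjust their own output through retained introns or exons that carry a premature stop codon. Transcripts of those kinds are held in the nucleus or degraded by nonsense-mediated decay. Reads counted per gene add all these transcripts together, so the values below do not separate productive from unproductive forms.

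The coding stretches that define both families are shown because they are the kinase signature and its substrate region. They were read 5′ to 3′ from GENCODE gene models on the GRCh37 genome, with positions counted from the A of the start codon. In the CLK stretches, capitals mark the codons at the place of the LAMMER signature. In CLK3, GTG (valine) and AAG (lysine) stand where that name has alanine and arginine. In the SR stretches, capitals mark arginine and serine codons.
CLK1, coding bases 1141 to 1203: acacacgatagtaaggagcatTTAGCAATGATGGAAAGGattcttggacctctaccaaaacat
CLK2, coding bases 1147 to 1209: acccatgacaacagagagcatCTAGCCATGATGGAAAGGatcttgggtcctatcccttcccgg
CLK3, coding bases 1126 to 1188: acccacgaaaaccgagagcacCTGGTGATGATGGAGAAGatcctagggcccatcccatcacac
CLK4, coding bases 1135 to 1197: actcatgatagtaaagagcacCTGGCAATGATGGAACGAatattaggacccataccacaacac
SRSF1, coding bases 610 to 669: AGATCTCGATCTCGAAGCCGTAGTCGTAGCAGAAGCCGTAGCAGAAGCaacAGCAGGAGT
SRSF2, coding bases 379 to 438: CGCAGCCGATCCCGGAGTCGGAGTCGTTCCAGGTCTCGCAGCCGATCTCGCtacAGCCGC
SRSF3, coding bases 418 to 477: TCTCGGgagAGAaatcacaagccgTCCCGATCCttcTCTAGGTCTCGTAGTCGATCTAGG
SRSF5, coding bases 550 to 609: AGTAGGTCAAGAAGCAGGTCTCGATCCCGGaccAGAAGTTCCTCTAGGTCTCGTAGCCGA
SRSF6, coding bases 580 to 639: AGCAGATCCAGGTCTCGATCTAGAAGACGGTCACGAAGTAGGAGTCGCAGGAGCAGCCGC
SRSF7, coding bases 379 to 438: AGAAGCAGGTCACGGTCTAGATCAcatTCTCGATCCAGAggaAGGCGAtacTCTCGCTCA

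Adjacent arginine and serine codons were counted over each whole coding sequence. The SR genes held 25 such pairs in SRSF3, 31 in SRSF1, 52 in SRSF2 and in SRSF5, 53 in SRSF7 and 76 in SRSF6. The kinases held such pairs too, 12 in CLK1 and in CLK4, 23 in CLK2 and 24 in CLK3. They lay mostly at the start of the kinase coding sequence, with 19 of 23 pairs of CLK2 and 21 of 24 pairs of CLK3 in the third at its 5′ end, whereas 28 of 31 pairs of SRSF1 and 48 of 52 pairs of SRSF5 lay in the third at its 3′ end. In the other SR genes that share was lower, with 21 of 25 pairs in SRSF3, 29 of 52 in SRSF2, 41 of 76 in SRSF6 and 28 of 53 in SRSF7. Among the kinases, CLK1 and CLK4 were the closest pair, with 78.1% identical aligned coding bases, and CLK1 and CLK3 the most distant, with 62.7%. Among the SR genes identity ran from 60.4% between SRSF1 and SRSF7 to 72.3% between SRSF3 and SRSF7.

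The 10 genes are spread over 8 chromosomes of GRCh37. CLK2 lies at chr1:155232659-155248282 on the minus strand, CLK3 at chr15:74890841-74937755 on the plus strand, CLK1 at chr2:201717732-201729414 and CLK4 at chr5:178029665-178057616, both on the minus strand. SRSF2 lies at chr17:74730197-74733415 and SRSF7 at chr2:38970741-38978636, both on the minus strand, and SRSF3 at chr6:36562130-36573377 on the plus strand. SRSF1 lies at chr17:56078280-56084707 on the minus strand, SRSF5 at chr14:70193617-70238722 and SRSF6 at chr20:42086533-42094686, both on the plus strand. The annotation lists transcripts with a retained intron or a decay-inducing stop codon for 9 of the 10 genes, all but CLK2. For CLK1, 8 of 14 annotated transcripts retain an intron, and for SRSF7, 6 of 12 are annotated as decay targets.

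Library totals ran from 26620086 to 39401494 counts, and 3 counts, taken as the floor, equal 0.0716 to 0.112 CPM (read counts relative to library total and TMM scaling factor). In normoxia the 10 genes together took 0.197 to 0.247% of all counts, and in hypoxia 0.124 to 0.173%. The 10 most abundant genes of a library took at most 3.97% of counts in normoxia and 5.87 to 7.35% in hypoxia, and the part of this shift in the results was not tested. The targeted genes checked the labels. The log2 difference from shNT was -2.05 in normoxia and -2.32 in hypoxia for CDK8 in shCDK8, and -2.12 and -2.08 for KAT5 in shTIP60. For HIF1A in HIF1A-null it was -2.99 in normoxia but -0.43 in hypoxia, where its counts (40.1 and 57.6 CPM) came near those of shNT (61.2 and 70.5 CPM). The sources used here do not give the deleted part, so counts over the gene do not show how much intact transcript was left. Epithelial markers such as EPCAM and the keratins summed to between 4107 and 11349 CPM per library, leukocyte markers to at most 1.44 CPM, endothelial markers to at most 3.35 CPM and fibroblast markers to at most 82.7 CPM. VIL1, an epithelial brush border marker, was under 1 CPM, and LUM, a fibroblast marker, was at 0 in every library. COL1A1, also in the fibroblast list, was not low and lay between 21.5 and 81.9 CPM. In bulk libraries, less RNA per cell and fewer cells that hold the RNA cannot be told apart.

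Per kilobase of exon, every SR gene stood above every kinase in control cells in normoxia, with SRSF5 and CLK2 the nearest across the classes. Over the union of annotated exons, shNT in normoxia held SRSF2 at 190 ± 10.6 RPKM (SD, n = 2), SRSF1 at 92.1 ± 0.20, SRSF6 at 60.7 ± 2.69, SRSF7 at 54.2 ± 0.78, SRSF3 at 51.3 ± 3.94 and SRSF5 at 35.9 ± 0.10 RPKM. CLK2 followed at 21.2 ± 0.79, CLK1 at 9.18 ± 1.43, CLK3 at 2.34 ± 0.18 and CLK4 at 1.24 ± 0.10 RPKM. SRSF7 and SRSF3 lay within their spread of each other. This order depended on the length used. Per kilobase of coding sequence, SRSF2 (852 ± 47.4), SRSF3 (743 ± 57.0) and SRSF1 (716 ± 1.55) led, and CLK1 (32.3 ± 5.04) and CLK3 (31.4 ± 2.35) lay within their spread of each other.

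The hypoxia comparison asked how 24 h of low oxygen changed these genes in each line. In shNT, 3 of the 4 kinases rose and 5 of the 6 SR genes fell, at an adjusted p (edgeR quasi-likelihood test, Benjamini-Hochberg) under 0.05. Of all genes tested, 20.7% rose and 20.0% fell in that comparison (40.7% in either direction). In HIF1A-null, 3 kinases rose and 5 SR genes fell, against 18.9% and 19.1% of all genes (38.0% in either direction). In shTIP60, all 4 kinases rose and 4 SR genes fell, against 19.4% and 19.8% (39.2%), and in shCDK8, 2 kinases rose and 4 SR genes fell, against 13.8% and 11.0% (24.8%). No kinase fell and no SR gene rose in any line. The median log2 change of the 4 kinases was 0.96 in shNT, 1.01 in HIF1A-null, 0.63 in shCDK8 and 0.93 in shTIP60. The median of the 6 SR genes was -1.01, -0.72, -0.69 and -0.88 in the same order, while the median of all genes tested lay between -0.02 and 0.00. Scaling by library totals in place of TMM factors moved that median to -0.20 in shNT, -0.28 in HIF1A-null, -0.16 in shCDK8 and -0.23 in shTIP60, and turned 3208 higher and 3103 lower calls in shNT into 2116 and 4605. No called member changed direction under that scaling.

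**Figure D1:**
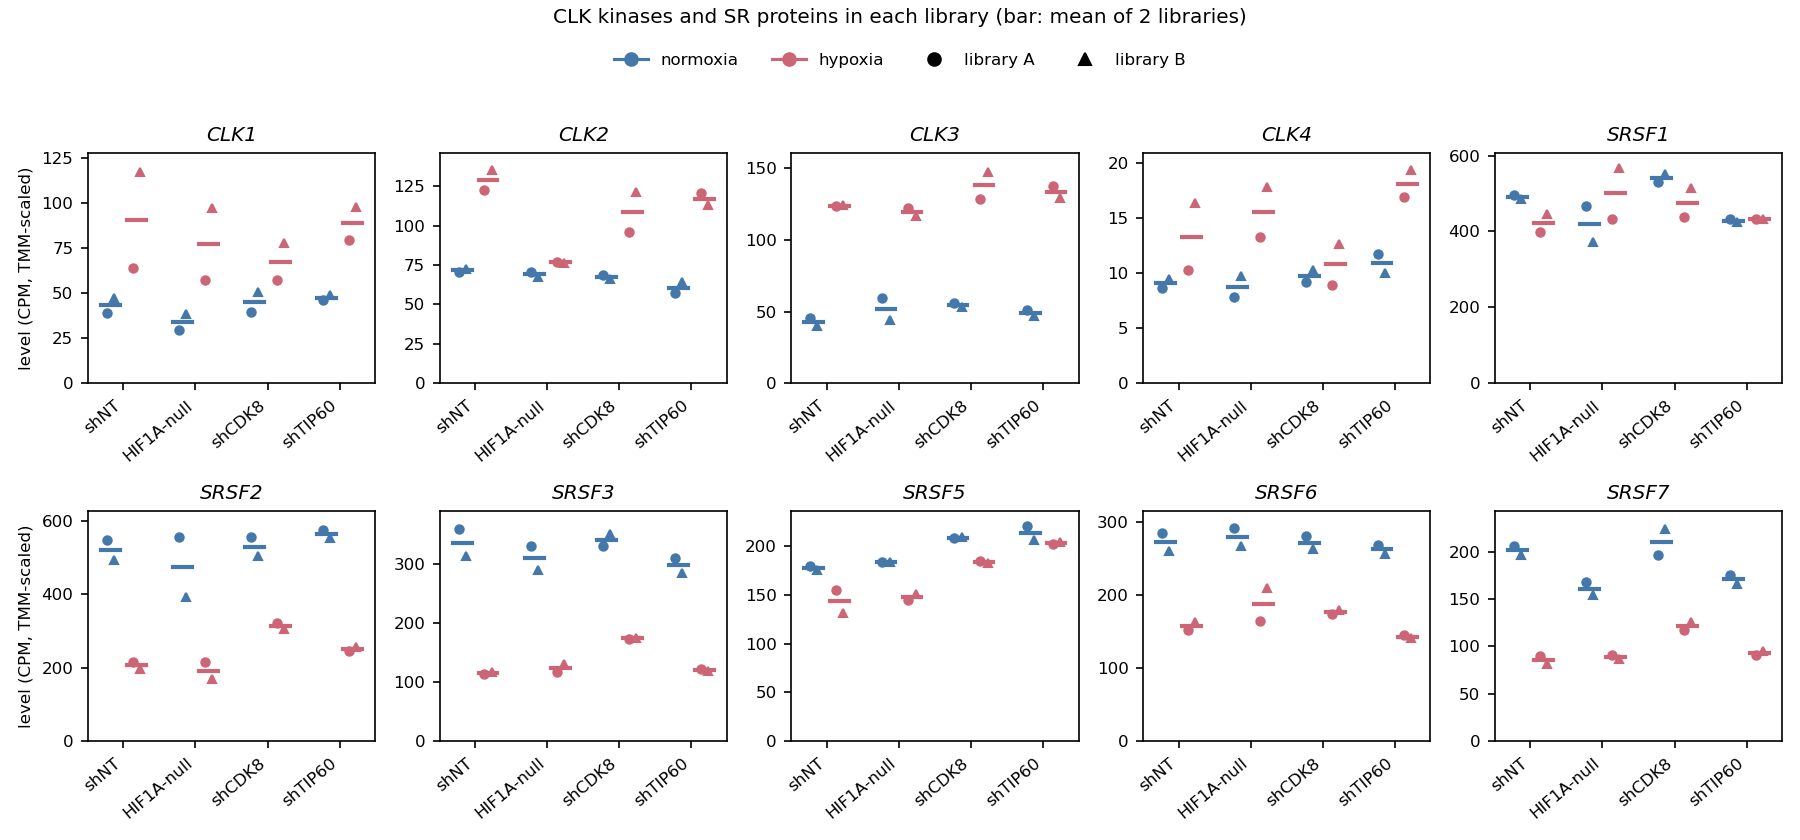
Level of each gene in each library, in CPM scaled by TMM factors (y axis from 0), by line (x axis) and oxygen (blue normoxia, red hypoxia), with circles for library A, triangles for library B and a bar for the mean of the 2 libraries. CLK3 spans 117 to 148 CPM in the hypoxia libraries and 39.7 to 59.7 CPM in the normoxia libraries, whereas CLK2 in HIF1A-null stays close to its normoxia level.

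Across lines, 7 of the 10 genes had no overlap between the 8 hypoxia libraries and the 8 normoxia libraries, 3 of them higher and 4 lower in hypoxia. Of all genes tested, 10.3% showed such a separation, 5.22% higher and 5.11% lower in hypoxia. CLK1, CLK2 and CLK3 lay higher in every hypoxia library, and SRSF2, SRSF3, SRSF6 and SRSF7 lower. CLK4, SRSF1 and SRSF5 overlapped.

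CLK3, which like its relatives phosphorylates SR proteins, had the widest range among the kinases. In shNT it measured 45.3 and 39.7 CPM in normoxia and 123 and 124 CPM in hypoxia (libraries A and B). The hypoxia libraries agreed closely and lay well above those in normoxia, a rise of 1.54 ± 0.14 (log2 fold change ± SE, adjusted p = 9.31e-07). Over all lines its lowest, median and highest normoxia values were 39.7, 48.8 and 59.7 CPM, and its hypoxia values 117, 127 and 148 CPM. It rose by 1.20 in HIF1A-null, 1.34 in shCDK8 and 1.45 in shTIP60, with adjusted p between 1.79e-06 and 1.27e-05. No difference between the response of an altered line and that of shNT passed for CLK3. The difference for HIF1A-null was -0.34, with a 95% interval from -0.76 to 0.08. CLK3 overlaps EDC3, an mRNA decapping factor gene on the opposite strand, and the strand setting of the counting is not given in the sources used here. EDC3 lay between 51.5 and 80.0 CPM, with no call in hypoxia in any line.

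CLK2 rose in 3 lines and not in HIF1A-null. In shNT it measured 70.6 and 72.4 CPM in normoxia and 123 and 135 CPM in hypoxia. In shTIP60 it measured 57.1 and 64.0 CPM in normoxia against 121 and 113 CPM in hypoxia, and in shCDK8 68.3 and 65.8 CPM against 95.6 and 121 CPM. In HIF1A-null it measured 70.7 and 67.3 CPM in normoxia and 76.7 and 76.4 CPM in hypoxia. The hypoxia libraries of HIF1A-null were thus the lowest of the 8, although still above every normoxia library. The changes were 0.85 ± 0.13 in shNT (adjusted p = 7.43e-05), 0.95 ± 0.13 in shTIP60 (3.29e-05) and 0.69 ± 0.13 in shCDK8 (0.00102), against 0.15 ± 0.13 in HIF1A-null (0.374), which was -0.12 when scaled by library totals. The response in HIF1A-null was smaller than that in shNT, with a difference of -0.70 ± 0.18 on the log2 scale (adjusted p = 0.0149), the only such difference called among the 10 genes with edgeR or DESeq2 for this line, where 16.4% of all genes were called (7.53% higher, 8.92% lower). Without the shNT normoxia library A the adjusted p was 0.0644, and in a fit of only the groups compared 0.0516.

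In hypoxia itself, CLK2 was lower in HIF1A-null than in shNT (-0.75 ± 0.13, adjusted p = 0.000224) and was the only member of the 10 called in that comparison, where 41.1% of all genes were called (20.3% higher, 20.8% lower). Without the HIF1A-null hypoxia library A, 2 members were called. In normoxia the same lines differed by -0.05 ± 0.13 (adjusted p = 0.858). The end of CLK2 overlaps HCN3, an ion channel gene on the opposite strand, and 6.13% of the 50-base words of CLK2 also occur in a processed copy, listed in the table as CLK2P. HCN3 rose in HIF1A-null, from 25.3 and 17.5 CPM in normoxia to 38.4 and 39.9 CPM in hypoxia (0.87 ± 0.16, adjusted p = 0.000654). CLK2P lay between 6.16 and 17.0 CPM in all libraries and changed by 0.85 ± 0.24 in shNT (adjusted p = 0.00906) and 0.34 ± 0.24 in HIF1A-null (0.279). The part of both genes in the CLK2 counts was not tested.

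CLK2 was the only kinase whose hypoxia response was called as different from that of shNT, and its promoter is shown. The call was lost in a fit of only the groups compared, and control of CLK2 by HIF was not tested. It is the 250 bases before the RefSeq start on the minus strand, at chr1:155273505-155273754 of GRCh38.p14, with matches to ACGTG or GCGTG on either strand in capitals. Those are the core letters of hypoxia response elements, and overlapping matches were joined.
CLK2 promoter: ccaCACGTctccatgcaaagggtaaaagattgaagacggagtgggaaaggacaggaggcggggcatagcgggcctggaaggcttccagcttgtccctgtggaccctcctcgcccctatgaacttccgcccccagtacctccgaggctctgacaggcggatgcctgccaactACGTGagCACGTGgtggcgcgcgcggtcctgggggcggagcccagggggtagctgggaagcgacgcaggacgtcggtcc
The window held 4 matches, of which CACGTG gave one on each strand. Of 35116 RefSeq promoter windows of this length, 43.2% held at least 1 match and 3.22% held 4 or more. Of the other members, SRSF1 held 5 matches, CLK4 3, SRSF6 2, SRSF3 1 and SRSF5 0. CLK1 and SRSF7 have 2 annotated starts each, with 2 and 2 matches in CLK1 and 1 and 1 in SRSF7, and CLK3 has 2 starts with 1 and 2. A match describes letters and does not show binding, and SRSF2 had no entry in the table used.

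CLK1, the best studied of these kinases, rose in 3 lines, with a wide spread between libraries. In shNT it measured 39.0 and 47.4 CPM in normoxia and 64.0 and 117 CPM in hypoxia. The groups did not overlap, but library B was 1.83 times library A in hypoxia. The rise was 1.07 ± 0.27 in shNT (adjusted p = 0.00544), 1.19 ± 0.28 in HIF1A-null (0.00302) and 0.90 ± 0.27 in shTIP60 (0.0154), and in shCDK8 the change was 0.58 ± 0.27 (0.137). That change was 0.53 within the A libraries and 0.61 within the B libraries, and it was called in a fit with the library number series as a block (0.0037) and without the filter on low counts (0.00283). Library B lay above library A for CLK1 in all 8 groups, by a median of 0.37 (log2). Within the A libraries alone the shNT change was 0.72, and within the B libraries 1.31. Without the shNT hypoxia library B, the change was 0.56 (adjusted p = 0.137), and without the shNT normoxia library A it was 0.93 (0.0635). The HIF1A-null rise was 0.76 without its hypoxia library B (0.0670). In shTIP60 the call was lost without either normoxia library or without hypoxia library B (adjusted p 0.0628 to 0.113), and with library totals (0.0605).

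CLK4, the closest relative of CLK1, was the least abundant of the 10. It measured 8.68 and 9.43 CPM in shNT in normoxia and 10.2 and 16.4 CPM in hypoxia, a change of 0.55 ± 0.23 (adjusted p = 0.0645). It rose in HIF1A-null, from 7.85 and 9.69 CPM to 13.3 and 17.9 CPM (0.83 ± 0.23, adjusted p = 0.00947), and in shTIP60, from 11.7 and 10.0 CPM to 16.9 and 19.3 CPM (0.73 ± 0.23, 0.0173). In shCDK8 the libraries overlapped, and the change was 0.15 ± 0.23 (0.692), which was -0.02 with library totals and -0.13 without hypoxia library B. As for CLK1, library B exceeded library A, in 7 of 8 groups. The HIF1A-null call was lost without normoxia library A (adjusted p = 0.0862) or hypoxia library B (0.112), and the shTIP60 call without either B library (0.127 and 0.113). With library totals adjusted p were 0.0721 in HIF1A-null and 0.0874 in shTIP60. The shNT change was called by DESeq2 (adjusted p = 0.0486), with the block by library number series (0.0146), without the filter on low counts (0.0173) and with a filter at a mean of 5 CPM (0.0478). The change in shNT was 0.17 without hypoxia library B and 0.85 without hypoxia library A, where it was called (0.0118).

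**Figure D2:**
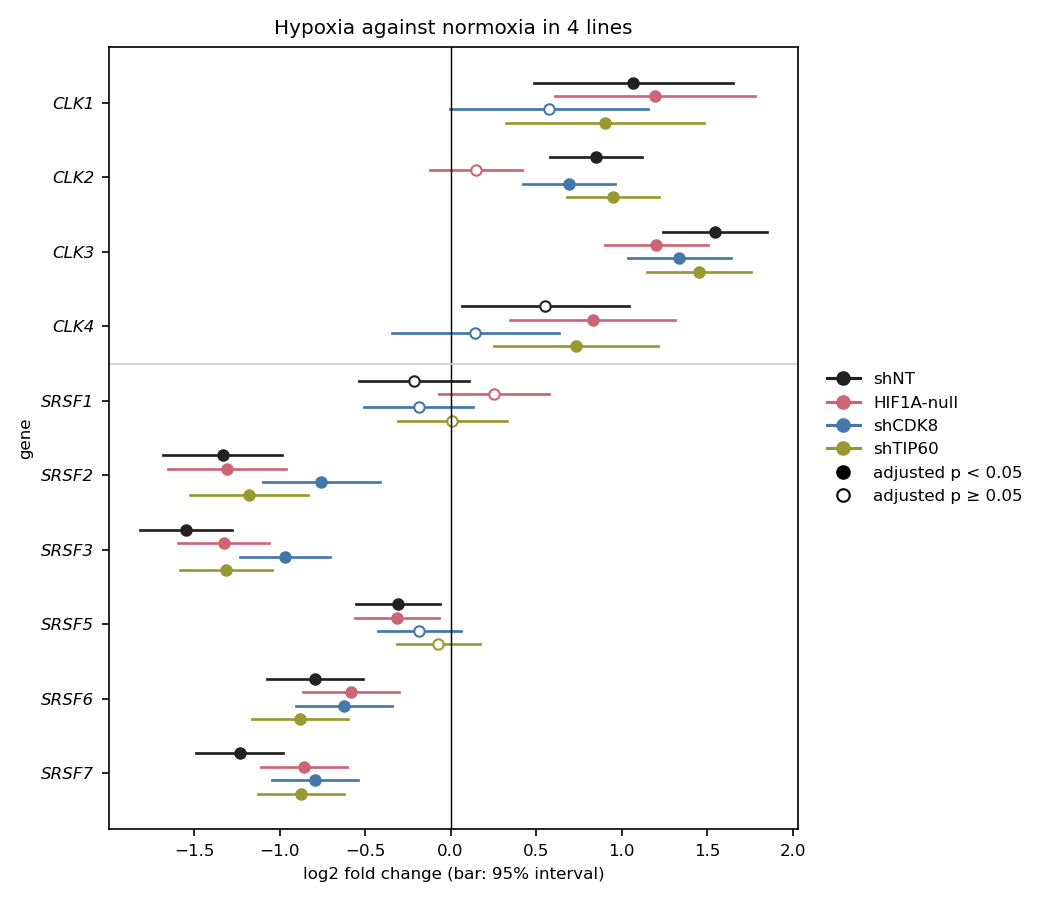
Log2 fold change between hypoxia and normoxia (x axis) of each gene (y axis) in the 4 lines, as points with 95% intervals, filled where the adjusted p is under 0.05. Filled kinase points lie right of 0 and filled SR points left of it, and the CLK2 point of HIF1A-null at 0.15 is the open point apart from the other 3 lines.

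SRSF3, the smallest SR protein of this set, showed the largest fall in shNT among the 10 genes. It measured 359 and 314 CPM in normoxia and 114 and 117 CPM in hypoxia, a fall of 1.55 ± 0.13 (log2 fold change ± SE, adjusted p = 2.35e-07). In hypoxia it measured 118 and 130 CPM in HIF1A-null, 122 and 118 CPM in shTIP60 and 173 and 175 CPM in shCDK8. The shCDK8 libraries were the highest of the 8 hypoxia libraries and lay below all normoxia libraries (285 CPM or more). The change was -1.33 ± 0.13 in HIF1A-null, -1.31 ± 0.13 in shTIP60 and -0.97 ± 0.12 in shCDK8, with adjusted p between 1.32e-06 and 5.19e-05.

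SRSF2, which binds exonic enhancers of constitutive and alternative exons, had the widest range of group means among the SR genes. It measured 548 and 493 CPM in shNT in normoxia and 217 and 196 CPM in hypoxia, a fall of 1.33 ± 0.16 (adjusted p = 1.32e-05). In HIF1A-null it measured 556 and 393 CPM in normoxia, with library B the lowest of the 8 normoxia libraries, and 214 and 169 CPM in hypoxia. In shTIP60 it measured 577 and 553 CPM against 244 and 255 CPM, and in shCDK8 557 and 504 CPM against 321 and 307 CPM. It fell in all of these lines, by 1.31 ± 0.16 in HIF1A-null (adjusted p = 2.08e-05), 1.18 ± 0.16 in shTIP60 (4.33e-05) and 0.76 ± 0.16 in shCDK8 (0.0031). SRSF2 overlaps MFSD11 on the opposite strand. MFSD11 lay between 10.1 and 45.4 CPM, under the lowest SRSF2 value of 169 CPM, and fell in HIF1A-null (-0.73) and shTIP60 (-0.96). The microRNA gene MIR636, inside SRSF2, had at most 8 counts in any library.

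SRSF7, a zinc-knuckle SR protein that also takes part in mRNA export, measured 207 and 197 CPM in shNT in normoxia and 90.0 and 81.6 CPM in hypoxia. The fall was 1.23 ± 0.12 in shNT (adjusted p = 1.35e-06), 0.86 ± 0.12 in HIF1A-null (5.18e-05), 0.88 ± 0.12 in shTIP60 (3.66e-05) and 0.80 ± 0.12 in shCDK8 (0.000203). SRSF6 measured 286 and 261 CPM in shNT in normoxia and 152 and 164 CPM in hypoxia. It fell by 0.80 ± 0.13 in shNT (adjusted p = 0.000207), 0.58 ± 0.13 in HIF1A-null (0.0028), 0.88 ± 0.13 in shTIP60 (9.60e-05) and 0.62 ± 0.13 in shCDK8 (0.00302). The HIF1A-null call for SRSF6 was lost in a fit of only the groups compared (adjusted p = 0.0576). For both genes the hypoxia libraries of every line lay below all normoxia libraries.

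Among the SR genes, SRSF5 and SRSF1 had the smallest changes in each line. SRSF5 measured 179 and 175 CPM in shNT in normoxia and 155 and 132 CPM in hypoxia. It passed narrowly in shNT (-0.31 ± 0.12, adjusted p = 0.0439) and HIF1A-null (-0.31 ± 0.12, 0.0425), and not in shCDK8 (-0.18, 0.265) or shTIP60 (-0.07, 0.660). The call was lost on leaving out any of 3 of the 4 shNT libraries (normoxia A, normoxia B or hypoxia B, adjusted p 0.108 to 0.300) or any of the 4 HIF1A-null libraries (0.0743 to 0.138). It was also lost without the filter on low counts (0.126 in shNT and 0.117 in HIF1A-null) and in a fit of only the groups compared (0.124 and 0.254), and in shNT with RLE size factors (0.0521) and with a filter at a mean of 5 CPM (0.0591). With library totals SRSF5 was called in shCDK8 (-0.35, 0.0284) and shTIP60 (-0.29, 0.0461). SRSF1, one of the founding members of the SR family, measured 496 and 485 CPM in shNT in normoxia and 399 and 447 CPM in hypoxia (-0.21 ± 0.15, adjusted p = 0.277). It was not called in hypoxia in any line, but scaling by library totals gave -0.41 in shNT (0.0276), -0.01 in place of 0.25 in HIF1A-null and -0.21 in place of 0.01 in shTIP60. In HIF1A-null the hypoxia libraries were far apart, at 433 and 568 CPM, and overlapped the normoxia values of 466 and 373 CPM. Of the 50-base words of SRSF1, 29.3% are shared with other gene models, nearly all with an overlapping model that is no row of the table, so its counts are uncertain if such reads were split or dropped. The share was 16.7% for SRSF6, 3.32% for CLK3, 0.861% for SRSF3 and 0 for CLK1, CLK4, SRSF2, SRSF5 and SRSF7.

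**Figure D3:**
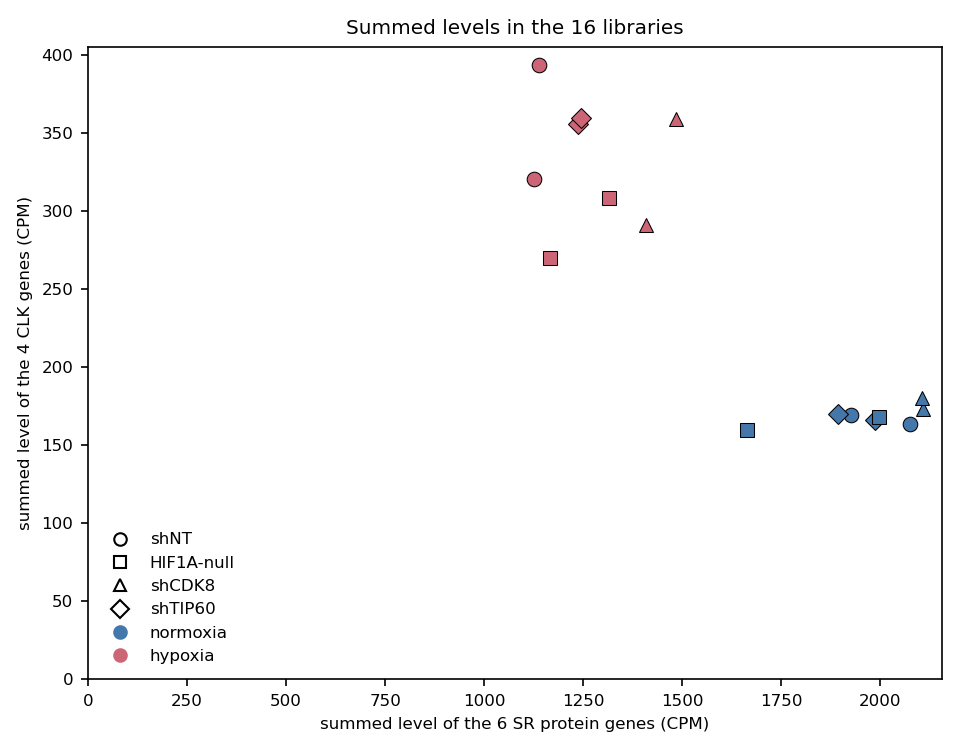
Summed level of the 4 CLK genes (y axis, CPM) against that of the 6 SR genes (x axis, CPM) in the 16 libraries, with a symbol for each line and blue for normoxia, red for hypoxia. The normoxia libraries sit at the lower right, with CLK sums of 160 to 180 CPM, and the hypoxia libraries at the upper left, with CLK sums of 270 to 393 CPM.

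Summed over each class, the kinases rose from 164 and 169 CPM to 321 and 393 CPM in shNT, while the SR genes went from 2075 and 1925 CPM to 1126 and 1137 CPM. In HIF1A-null the kinase sum was 168 and 160 CPM in normoxia against 270 and 308 CPM in hypoxia, and the SR sum 1997 and 1662 CPM against 1165 and 1315 CPM. In shCDK8 the kinase sum was 173 and 180 CPM against 291 and 359 CPM, and the SR sum 2106 and 2104 CPM against 1408 and 1484 CPM. The shTIP60 sums were 166 and 169 CPM against 355 and 359 CPM for the kinases, and 1987 and 1892 CPM against 1237 and 1245 CPM for the SR genes. Neither sum overlapped between oxygen levels in any line. The lowest hypoxia kinase sums were those of HIF1A-null library A and shCDK8 library A, and the highest hypoxia SR sums those of shCDK8. These sums were not tested.

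The comparisons of the altered lines with shNT asked which of these genes depended on HIF1A, CDK8 or TIP60. In normoxia, edgeR called none of the 10 genes in any altered line. Of all genes, the share called was 11.7% in HIF1A-null, 13.1% in shCDK8 and 18.4% in shTIP60. At an unadjusted p under 0.05 there was 1 gene in each comparison, SRSF7 in HIF1A-null (-0.32 ± 0.12), CLK3 in shCDK8 (0.36 ± 0.14) and SRSF5 in shTIP60 (0.27 ± 0.12). DESeq2 called SRSF7 in HIF1A-null (adjusted p = 0.0376), none in shCDK8 and SRSF5 in shTIP60 (0.0431). All 3 lines used the same shNT libraries as control.

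In hypoxia, 4 SR genes were higher in shCDK8 than in shNT, SRSF2, SRSF3, SRSF5 and SRSF7, and none of the 10 was lower. Of all genes, 27.9% were called there, 14.4% higher and 13.4% lower. SRSF3 was higher by 0.60 ± 0.12 (adjusted p = 0.00225), SRSF2 by 0.60 ± 0.16 (0.0113), SRSF7 by 0.50 ± 0.12 (0.00549) and SRSF5 by 0.36 ± 0.12 (0.0291). For each gene both shCDK8 libraries lay above both shNT libraries, as in SRSF7 with 117 and 125 CPM against 90.0 and 81.6 CPM. Such separation of 2 against 2 libraries was also seen in members that were not called, and its share over all genes was not counted. Without the shNT hypoxia library B only SRSF3 was called, and adjusted p were 0.0914 for SRSF2, 0.0616 for SRSF7 and 0.244 for SRSF5. Without the shCDK8 hypoxia library A, SRSF2 (0.0768) and SRSF5 (0.132) were not called, and SRSF5 was also lost without library B (0.102). The 4 kinases were not called, with differences from -0.43 ± 0.27 for CLK1 to 0.16 ± 0.14 for CLK3.

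The differences in level in hypoxia did not come with called differences in response. edgeR called none of the 10 genes for the hypoxia response of shCDK8 against that of shNT, where 0.0387% of all genes were called. At an unadjusted p under 0.05 there were 3, SRSF2 (0.58 ± 0.23, adjusted p = 0.360), SRSF3 (0.58 ± 0.17, 0.231) and SRSF7 (0.44 ± 0.17, 0.343). Their 95% intervals ran from 0.09 to 1.06, 0.21 to 0.95 and 0.08 to 0.79, so the estimated fall of each was smaller in shCDK8. DESeq2 called 1, SRSF3 (0.55, adjusted p = 0.0484).

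In shTIP60, SRSF5 was higher than in shNT in hypoxia, with 203 and 204 CPM against 155 and 132 CPM (0.50 ± 0.12, adjusted p = 0.00504), and it was the only member called, against 21.8% of all genes (11.3% higher, 10.5% lower). Without the shNT hypoxia library B, the lowest SRSF5 value of the 16, the adjusted p was 0.0819. edgeR and DESeq2 called none of the 10 for the difference of responses, against 0.0322% of all genes with edgeR. At an unadjusted p under 0.05 there was 1, SRSF7 (0.36 ± 0.17, adjusted p = 0.851). For HIF1A-null, SRSF1 (0.47 ± 0.21, 0.148) and SRSF7 (0.38 ± 0.17, 0.139) also had an unadjusted p under 0.05 for the difference of responses, besides CLK2. SRSF1 was called without the HIF1A-null hypoxia library A (0.65, 0.0491).

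**Figure D4:**
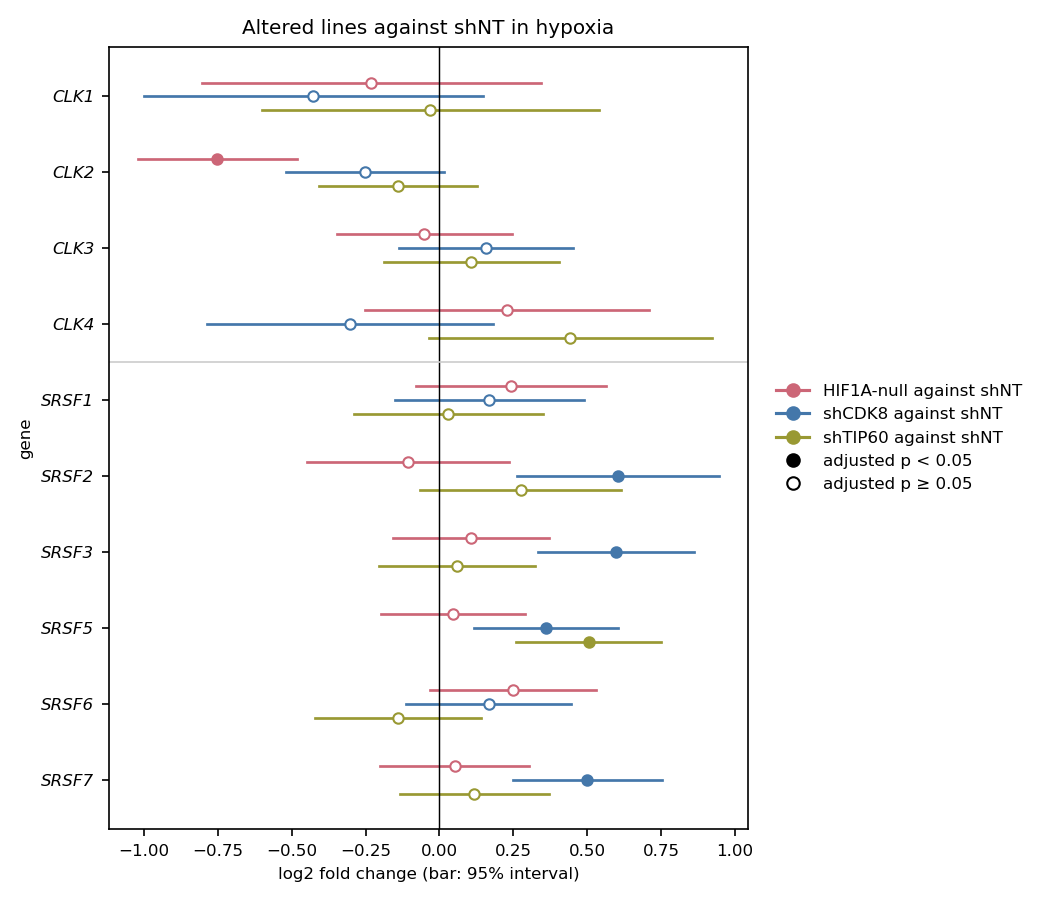
Log2 fold change of each altered line against shNT in hypoxia (x axis) for each gene (y axis), as points with 95% intervals, filled where the adjusted p is under 0.05. The filled points are CLK2 in HIF1A-null at -0.75, SRSF2, SRSF3, SRSF5 and SRSF7 in shCDK8 between 0.36 and 0.60, and SRSF5 in shTIP60 at 0.50.

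Other splicing genes were counted by class, in lists that do not hold the 10 members. Their counts for hypoxia stand against 20.7% of all genes higher and 20.0% lower in shNT, 18.9% and 19.1% in HIF1A-null, 13.8% and 11.0% in shCDK8, and 19.4% and 19.8% in shTIP60. Of the other 7 SR and SR-like proteins tested, 4 fell in shNT in hypoxia and none rose, with a median of -0.75. TRA2B, a splicing activator with an arginine/serine-rich domain at both ends, fell by 1.38 ± 0.14 (adjusted p = 1.59e-06), SRSF8 by 0.93 ± 0.13 (3.83e-05) and TRA2A by 0.75 ± 0.12 (0.000103). In shCDK8 and shTIP60 4 of 7 fell and none rose. In HIF1A-null 4 fell and 2 rose. SRSF8 fell by 1.70 ± 0.13 (2.68e-07) there, and SRSF4 (0.87 ± 0.16) and SRSF11 (0.49 ± 0.14) rose. TRA2B fell less in HIF1A-null than in shNT by 0.94 ± 0.19 (adjusted p = 0.00377) and SRSF8 fell more (difference -0.77 ± 0.18, 0.0102).

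Kinases of SR proteins outside the CLK family had 1 call for hypoxia against normoxia in each of shNT, HIF1A-null and shCDK8, and 2 in shTIP60. These counts were near or below the share of all genes called, which was 40.7%, 38.0%, 24.8% and 39.2% in that order. Of 5 tested, SRPK1, the cytoplasmic kinase that readies SR proteins for nuclear import, fell in shNT (-0.65 ± 0.13, adjusted p = 0.000763), shCDK8 (-0.43 ± 0.13, 0.0197) and shTIP60 (-0.54 ± 0.13, 0.00335). DYRK1A rose in HIF1A-null (0.79 ± 0.14, 0.000522) and DYRK1B in shTIP60 (0.95 ± 0.26, 0.00973). The other tested members of this list were not called for hypoxia against normoxia, and SRPK3 was not tested. Among 19 SR-related proteins, such as SON and PNISR, which carry arginine/serine stretches but are not classical SR proteins, 4 rose and 5 fell in shNT, 10 rose and 3 fell in HIF1A-null, 1 rose and 1 fell in shCDK8, and 4 rose and 3 fell in shTIP60. The shares in shNT and shTIP60 were near those of all genes (20.7% higher and 20.0% lower, and 19.4% and 19.8%). PNISR rose by 0.74 ± 0.16 in shNT and 1.00 ± 0.16 in HIF1A-null, and LUC7L and BCLAF1 fell in shNT by 0.81 ± 0.15 and 0.85 ± 0.18. Without the shNT hypoxia library B, 3 SR-related genes were called in shNT.

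Among 18 hnRNP proteins, RNA-binding proteins that often oppose SR proteins at splice sites, 10 fell in shNT and none rose (median -0.51). In shTIP60 7 fell and none rose (median -0.34). In shCDK8 2 fell and none rose (median -0.13), a share near the 11.0% of all genes that fell there. In HIF1A-null 5 rose and 2 fell (median 0.23). HNRNPR fell by 0.95 ± 0.13 in shNT (adjusted p = 2.71e-05), HNRNPAB by 1.89 ± 0.27 (4.93e-05) and HNRNPF by 0.88 ± 0.15 (0.000224), whereas HNRNPA3 rose by 0.69 ± 0.15 (0.00186) in HIF1A-null. The hypoxia response of HIF1A-null minus that of shNT was positive and called for 8 of the 18, against 7.53% of all genes. Of 29 core spliceosome genes, 15 fell and none rose in shNT (median -0.50), 4 fell and 6 rose in HIF1A-null (median -0.09), 6 fell and 1 rose in shCDK8, and 14 fell and none rose in shTIP60. The HIF1A-null counts of core genes were near the 18.9% higher and 19.1% lower of all genes, or below. SNRPD1 (-0.97 ± 0.12), SNRPG (-1.09 ± 0.15) and SNRPC (-0.83 ± 0.13), which encode small ribonucleoprotein subunits, led in shNT. The difference of responses was positive and called for SNRPG, SNRPD1, SNRPF and SNRPC in HIF1A-null, 4 of 29. Counts in these lists depended on single libraries. For all list counts without a library, here, above and below, the calls over all genes in the same fit are not given. Such shifts are therefore not read as particular to the lists. Without the HIF1A-null hypoxia library B, 2 hnRNP and 3 core genes were called for hypoxia in that line. In shTIP60, 4 hnRNP genes were called without normoxia library A. In shCDK8, 3 core genes were called without hypoxia library A and 11 without normoxia library A. For the difference of responses, 4 hnRNP genes and 1 core gene were called without the shNT normoxia library A, and without the HIF1A-null normoxia library B, 4 and 2.

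**Figure D5:**
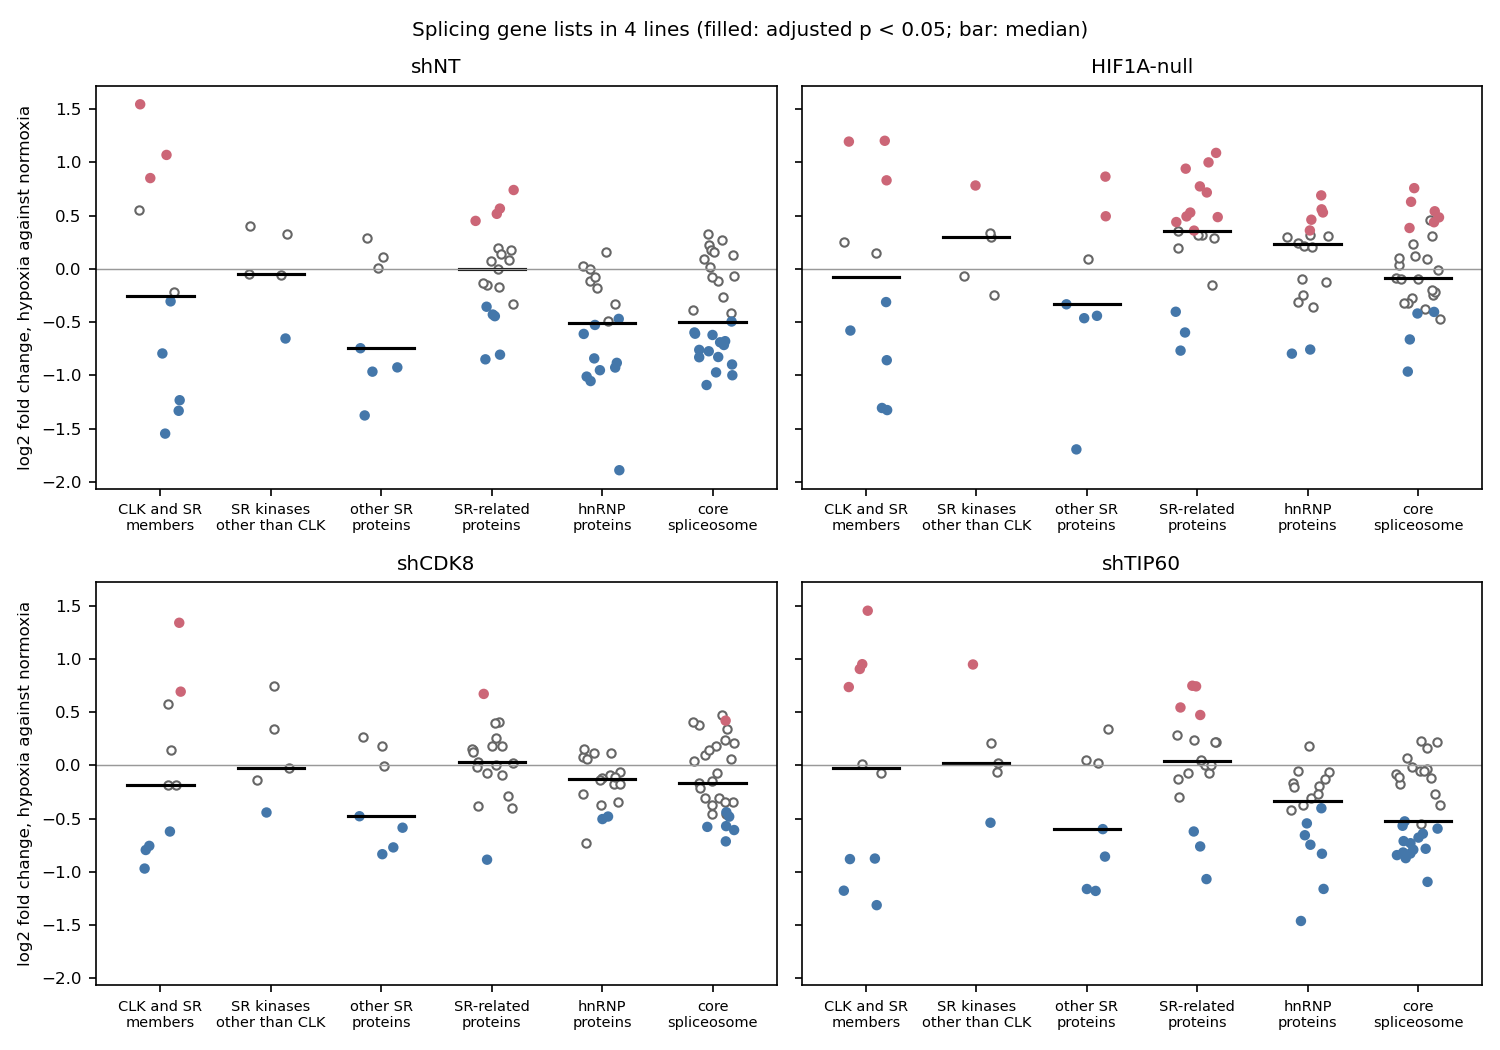
Log2 fold change between hypoxia and normoxia (y axis) of each tested gene in the 10 members and 5 other lists of splicing genes (x axis) in each line, filled where the adjusted p is under 0.05, red above and blue below 0, with a bar at the list median. The hnRNP median lies at -0.51 in shNT and 0.23 in HIF1A-null.

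In hypoxia, some genes of these lists were higher in shCDK8 than in shNT, where 14.4% of all genes were higher and 13.4% lower. They were 3 of 7 other SR and SR-like proteins, 7 of 18 hnRNP proteins, 11 of 29 core spliceosome genes, 2 of 19 SR-related proteins and 1 of 5 other kinases, with none lower. HNRNPH3 (0.89 ± 0.13, adjusted p = 0.000138), HNRNPAB (1.42 ± 0.27, 0.001), TRA2B (0.59 ± 0.13, 0.00396) and SNRPD1 (0.61 ± 0.12, 0.0018) were among them. In HIF1A-null, 11 of 18 hnRNP genes and 7 of 29 core spliceosome genes were higher than in shNT in hypoxia and none was lower, against 20.3% of all genes higher and 20.8% lower, a share that the core genes were near. Of the 7 other SR and SR-like proteins, 3 were higher and 1 lower in that comparison. Of 19 SR-related proteins 5 were higher and 1 lower, and of 5 other kinases 2 were higher and 0 lower. The shares called in these 3 lists were 57.1%, 31.6% and 40%, against 41.1% of all genes. Of the 10 CLK and SR members, 1 was called in HIF1A-null against shNT in hypoxia, CLK2, and it was lower. Without the shNT hypoxia library B, shCDK8 had 0 calls among the other SR and SR-like proteins, 2 among hnRNP proteins and 2 among core spliceosome genes, and HIF1A-null had 7 and 4 calls in the hnRNP and core lists.

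Genes whose level followed a member over the 8 groups were sought for CLK3 and SRSF2, which had the widest range of group means in their class (3.25-fold and 2.97-fold). By Pearson r over the 8 group means of log2 CPM, among 9600 genes with a mean of at least 5 CPM, the genes most like CLK3 were NPEPPS (0.988), SGK494 (0.988), KDM6B (0.986), SCAPER (0.985) and TMF1 (0.983). Those most like SRSF2 were POLR3F (0.997), ZNHIT2 (0.995), TOE1 (0.993), WDR53 (0.992) and UBTF (0.991). These groups share libraries and the oxygen contrast. Spearman rho gave no usable ranking for SRSF2, since its first 5 genes were tied at a rho of 1. For CLK3, Spearman rho kept NPEPPS first and otherwise gave ADCY6, DGKA, FBXL8 and HDAC4, tied at 0.976, so the list depended on the measure.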

How the data were processed

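Poly(A) RNA of 16 libraries was sequenced on the Ion Torrent Proton. Per the submitters' processing notes, reads were handled with GSNAP and HTSeq 0.5.4p5 on hg19 (GRCh37). The gene annotation, strand setting and read filters are not given in the sources used here. The deposited values are raw counts per gene symbol. They were analysed with edgeR 4.0.16 in R 4.3.3 (TMM factors, filterByExpr with at least 10 counts and 15 in total, robust quasi-likelihood fit over 8 groups with 8 residual degrees of freedom). There were 13 comparisons, each Benjamini-Hochberg adjusted over 15520 genes at 0.05. Scripts were tested on simulated counts. Totals were 26620086 to 39401494 counts, and floors cover counting error only. Intervals of fold changes are 95%.

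The members and gene lists were chosen with earlier results of these data known. Named genes were all members, up to 3 called genes with the smallest adjusted p per list and comparison, the targeted genes, and the 5 genes most like CLK3 and SRSF2. SNRPC for the difference of responses, and the genes that overlap or copy a member, were named after their values were seen. Alternatives were DESeq2 1.42.0, other scalings and filters, thinning, fits of only the groups compared, a block and leaving out each library.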

Additional observations from a re-analysis of the deposited data

Results flagged for a closer look

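The hypoxia response of CLK2 differed between lines by a test of the difference itself. It was lower in HIF1A-null than in shNT by a log2 difference of -0.70 ± 0.18 (edgeR quasi-likelihood test, adjusted p = 0.0149), with a 95% interval from -1.08 to -0.32, and both HIF1A-null hypoxia libraries lay below all 6 hypoxia libraries of the other lines. HCN3, which overlaps CLK2 on the opposite strand, had a difference of 0.77 ± 0.23 in the other direction (adjusted p = 0.0318), and CLK2P one of -0.51 ± 0.33 (0.319). The part of these genes in the CLK2 difference was not tested. The CLK2 call was lost in a fit of only the groups compared (adjusted p = 0.0516) and without the shNT normoxia library A.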

How the results depend on the processing

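In hypoxia against normoxia, the directions of CLK3, SRSF2, SRSF3 and SRSF7 and their calls held in every line and alternative run. The ranges below for leaving out a library are not set beside the calls over all genes in the same fits. They are not read as particular to the members. Leaving out each library gave 6 to 9 called members in shNT, 5 to 7 in HIF1A-null (5 without its hypoxia library B), 6 to 6 in shCDK8 and 6 to 8 in shTIP60. For altered lines against shNT in normoxia it gave 0 to 1 in HIF1A-null and 0 to 0 in shCDK8 and shTIP60. In hypoxia it gave 1 to 2 in HIF1A-null, 1 to 5 in shCDK8 and 1 to 1 in shTIP60. For the difference of responses it gave 0 to 2 in HIF1A-null (0 without shNT normoxia library A) and 0 to 0 in the other lines. In HIF1A-null against shNT in normoxia, 1 member was called with library totals, with DESeq2 and with a block for library number series. In shTIP60 against shNT in normoxia, 1 was called with DESeq2 and in a fit of only the groups compared. That fit called 0 for the HIF1A-null difference of responses, and DESeq2 called 1 for shCDK8. With library totals, the hypoxia change was -0.12 for CLK2 and -0.013 for SRSF1 in HIF1A-null, -0.021 for CLK4 in shCDK8 and -0.21 for SRSF1 in shTIP60. Leaving out 1 library gave -0.13 to 0.38 for CLK4 in shCDK8 and -0.0068 to 0.023 for SRSF1 in shTIP60. The cause of these shifts was not tested.

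The block on the replicate numbers of the titles was not run, since the columns carry library numbers and not those. A replicate block by library number series, chosen after seeing the data, called 1 member in shCDK8 against shNT in normoxia, 2 in shTIP60 against shNT in hypoxia and 1 for the shCDK8 difference of responses. In hypoxia against normoxia it added CLK4 in shNT (adjusted p = 0.0146) and CLK1 in shCDK8 (0.0037). Calls over all 15520 genes rose under this block too, from 6311 to 7701 in shNT and from 3848 to 5578 in shCDK8. The calls that the block added are therefore not read as particular to the members. The libraries of a series share only a number. The correlation of the difference between libraries across oxygen levels was 0.22 in shNT, 0.40 in HIF1A-null, 0.30 in shCDK8 and 0.085 in shTIP60. Depth limited no member, since the lowest value was 7.85 CPM and the floor at most 0.112 CPM. With 2 libraries a group and 1 line per alteration, p-values measure the spread between these libraries, and the line cannot be told apart from its alteration. In a fit that leaves an arm with 1 library, that library is assumed to vary like the other groups.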
